A study of Mus musculus with 15 samples.

Results

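Polyamine and methionine-salvage genes were followed through 15 RNA-sequencing libraries of mouse pre-B cells. The set holds 9 genes, taken by symbol with no cut-off on their values, though earlier results of these data were known. They are Odc1, Amd1, Srm and Sms for synthesis, Sat1 for breakdown, Oaz1 and Azin1 for control of Odc1, and Mtap and Adi1 for methionine salvage. All 9 were found among the 11551 protein-coding genes listed in any of the 4 deposited tables, and no filter on low values was applied to them. A gene enters those tables only when it passed the authors' own adjusted p in at least 1 comparison.

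Polyamines (putrescine, spermidine and spermine) are small cations that bind RNA and DNA and that dividing cells need for growth and translation. Ornithine decarboxylase makes putrescine, and spermidine and spermine synthases lengthen it with aminopropyl groups taken from decarboxylated S-adenosylmethionine, the product of Amd1. The methylthioadenosine left over is cleaved by Mtap and carried back to methionine by the salvage enzymes, of which Adi1 is a late one. Antizyme, the product of Oaz1, binds ornithine decarboxylase and delivers it to the proteasome, and the antizyme inhibitor Azin1, an inactive homologue of the enzyme, releases it. Odc1 is a textbook target of the transcription factor Myc.

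The cells were pre-B lines transformed with the Abelson virus, whose kinase keeps them in cycle, at passages 10 to 15. Imatinib, an inhibitor of that kinase, was given for 48 h in every group, controls included. Rag_SPIC_tet_NoDOX and Rag_SPIC_tet_DOX are Rag -/- cells, which cannot cut their immunoglobulin genes, with a tetracycline-controlled construct for the transcription factor SPIC, without and with doxycycline (DOX). Rag_SPIC_tet_DOX_shBCLAF1 has in addition an shRNA label naming BCLAF1. Art and Art_shBCLAF1 are Art -/- cells, which lack the nuclease Artemis and cannot repair those cuts, without and with that shRNA label; no SPIC construct is named for them. Each group has 3 libraries, so n = 3 wherever a group mean is given, and the groups without the shRNA are labelled as having none, not a control hairpin. The labels do not say whether a line is 1 clone or whether replicates were cultured apart.

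Libraries held 17.2 to 27.1 M reads by their effective size, except Art replicate 3 with 5.81 M reads, in which 145 of the 11551 genes had 0 reads. Over all genes, that library lay a median of 0.59 log2 units, in absolute value, from the mean of Art replicates 1 and 2. Well-counted genes were among those shifted: Atp13a2, with at least 6072 reads per Art library, was at 10.03 log2 CPM against 9.01 and 9.02. The part of depth in this shift was not tested. Bclaf1 checks the shRNA label, and it was not lower where the label stands: its mean was 8.04 log2 CPM (read counts scaled to library size) in Rag_SPIC_tet_DOX_shBCLAF1 against 7.73 in Rag_SPIC_tet_DOX, and 8.32 in Art_shBCLAF1 against 7.32 in Art. The Art mean includes the shallow replicate 3 at 6.41, with replicates 1 and 2 at 7.81 and 7.75. In Rag cells Bclaf1 passed as higher with the label (log2 fold change 0.32, adjusted p = 0.00537 in limma). In Art cells the difference did not pass (0.99, adjusted p = 0.0679 in limma). Spic differed along with the label too, at 7.46 against 4.21 and at 4.54 against 0.44. The 6 libraries are therefore called libraries labelled shBCLAF1, and a direction below belongs to the label and not to a measured loss of Bclaf1. All 10 pre-B markers examined were listed, with a summed level of 5505 to 7283 CPM in the libraries labelled shBCLAF1 and 8188 to 12455 CPM in the other 9. Of 6 T or NK cell markers 0 were listed, and 1 of 4 erythroid markers (Klf1, at most 1.12 CPM). Of 7 myeloid symbols, of which 2 name the same gene, 4 were listed, and they summed to 2.58 to 4.0 CPM in the libraries labelled shBCLAF1 and 9.70 to 27.2 CPM in the others, and 3 plasma-cell markers summed to 66.3 to 103 CPM and 128 to 232 CPM. Of these 3, Jchain ran the other way in the Art cells, at 5.18 to 5.51 log2 CPM with the label and 3.70 to 4.18 without it. The part these markers have in the differences below was not tested. In bulk RNA, fewer cells of a type and less RNA per cell cannot be told apart.

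Promoters were looked up in RefSeq (build GRCm38.p6, not the build of the counts) and were found for 6 of the 9 genes, in 7 windows of 250 bases before to 50 bases after the gene's start. None was found for Srm, Azin1 and Adi1, and sequence outside the windows was not searched. The hexamers searched on both strands were CACGTG, the E-box that Myc binds; GGGCGG, the GC box; TATAAA, the TATA box; and GAGGAA, the PU box, bound by ETS factors such as PU.1 and SPIC. Each was read on either strand, so a GC box also shows as CCGCCC. Shown are the 250 bases before the start of 3 genes that were high in the libraries labelled shBCLAF1 (Odc1, Amd1 and Mtap) and of Sat1, which ran the other way, each 5′ to 3′ on the gene's strand with matches in capitals. They lie at chr12:17544623-17544872 (plus strand), chr10:40302189-40302438 (minus), chr4:89137120-89137369 (plus) and chrX:155216450-155216699 (minus).
Odc1: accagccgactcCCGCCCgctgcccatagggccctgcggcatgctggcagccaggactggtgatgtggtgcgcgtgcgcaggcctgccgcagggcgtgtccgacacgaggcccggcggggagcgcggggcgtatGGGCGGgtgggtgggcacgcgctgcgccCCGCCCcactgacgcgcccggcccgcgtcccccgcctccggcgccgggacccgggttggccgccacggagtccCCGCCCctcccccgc
Amd1: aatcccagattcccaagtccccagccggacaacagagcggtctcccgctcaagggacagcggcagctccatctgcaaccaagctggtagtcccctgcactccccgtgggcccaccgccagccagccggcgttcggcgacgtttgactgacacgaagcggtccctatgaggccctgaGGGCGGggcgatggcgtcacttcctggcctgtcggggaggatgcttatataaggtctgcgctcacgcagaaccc
Mtap: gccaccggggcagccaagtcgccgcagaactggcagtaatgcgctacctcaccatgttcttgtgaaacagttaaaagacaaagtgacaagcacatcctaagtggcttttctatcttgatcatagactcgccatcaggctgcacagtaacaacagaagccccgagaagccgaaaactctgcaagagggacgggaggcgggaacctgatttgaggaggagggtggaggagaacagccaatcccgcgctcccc
Sat1: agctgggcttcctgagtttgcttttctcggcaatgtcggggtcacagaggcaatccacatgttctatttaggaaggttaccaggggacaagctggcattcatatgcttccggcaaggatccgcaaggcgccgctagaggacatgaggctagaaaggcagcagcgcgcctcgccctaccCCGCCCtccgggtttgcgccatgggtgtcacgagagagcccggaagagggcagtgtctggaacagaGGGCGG
Odc1 carries 4 GC boxes in its window, Sat1 carries 2 and Amd1 has 1, while Mtap has no match before its start and 1 GAGGAA after it. Of all 32851 RefSeq promoter windows of that length, 35.7% hold GGGCGG, 28.3% GAGGAA, 13.6% TATAAA and 7.15% CACGTG. The one CACGTG among the 7 windows is 196 bases before the upstream start of Sms, whose other window holds 4 GC boxes, 3 of them overlapping one another. Oaz1 has 1 GAGGAA and 1 TATAAA. The matches are letters in a window, not measured binding.

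Levels below are in log2 CPM (0.5 was added per read count) and are compared between libraries for 1 gene, not between genes, since they are not divided by gene length. Odc1 (ENSMUSG00000011179), the first enzyme of the pathway, was at 4.43, 4.25 and 4.24 in Rag_SPIC_tet_NoDOX and at 3.62, 3.78 and 4.49 in Art. It stood at 6.61, 6.68 and 6.74 in Rag_SPIC_tet_DOX_shBCLAF1 and at 6.72, 6.38 and 6.73 in Art_shBCLAF1, and at 6.31, 3.66 and 5.44 in Rag_SPIC_tet_DOX. The 6 libraries labelled shBCLAF1 lay above the other 9, and the Rag_SPIC_tet_DOX libraries ran from below every Rag_SPIC_tet_NoDOX library to just under the labelled ones.

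Srm (ENSMUSG00000006442), the spermidine synthase, had the widest span of the 9 genes: 80.7-fold, from 3.41 CPM in Rag_SPIC_tet_DOX replicate 2 to 275 CPM in Rag_SPIC_tet_DOX_shBCLAF1 replicate 3. Of all genes, 98.6% had a smaller span. Its values were 2.48, 2.19 and 2.52 log2 CPM in Rag_SPIC_tet_NoDOX and 2.16, 2.24 and 3.31 in Art, where 57 to 115 reads were counted. They were 8.02, 8.09 and 8.10 in Rag_SPIC_tet_DOX_shBCLAF1 and 7.89, 7.47 and 7.70 in Art_shBCLAF1, from 3325 to 7457 reads. Rag_SPIC_tet_DOX held 6.91, 1.77 and 5.71, so its replicate 2 was the lowest library of all and its replicate 1 the highest outside the labelled groups.

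Amd1 (ENSMUSG00000075232), which makes the aminopropyl donor, was at 1.81, 1.67 and 1.64 in Rag_SPIC_tet_NoDOX, 3.07, 1.59 and 2.35 in Rag_SPIC_tet_DOX and 1.71, 1.90 and 1.41 in Art. In Rag_SPIC_tet_DOX_shBCLAF1 it was at 4.08, 4.18 and 4.19, and in Art_shBCLAF1 at 4.04, 3.64 and 3.96. All 6 labelled libraries were again above the other 9. The levels rest on 15 to 493 reads and are uncertain, because Amd2, which is nearly identical in sequence and is not analysed here, could share them.

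Sms (ENSMUSG00000071708), the spermine synthase, was nearly level in the Rag cells. Its values were 5.28, 5.29 and 5.32 in Rag_SPIC_tet_NoDOX and 5.26, 5.32 and 5.25 in Rag_SPIC_tet_DOX_shBCLAF1, with 5.64, 5.07 and 5.19 in Rag_SPIC_tet_DOX. These 3 groups overlapped. In the Art cells the values were 5.01, 4.91 and 4.30 without the label and 5.66, 5.63 and 5.59 with it, and there the groups were apart.

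**Figure D1:**
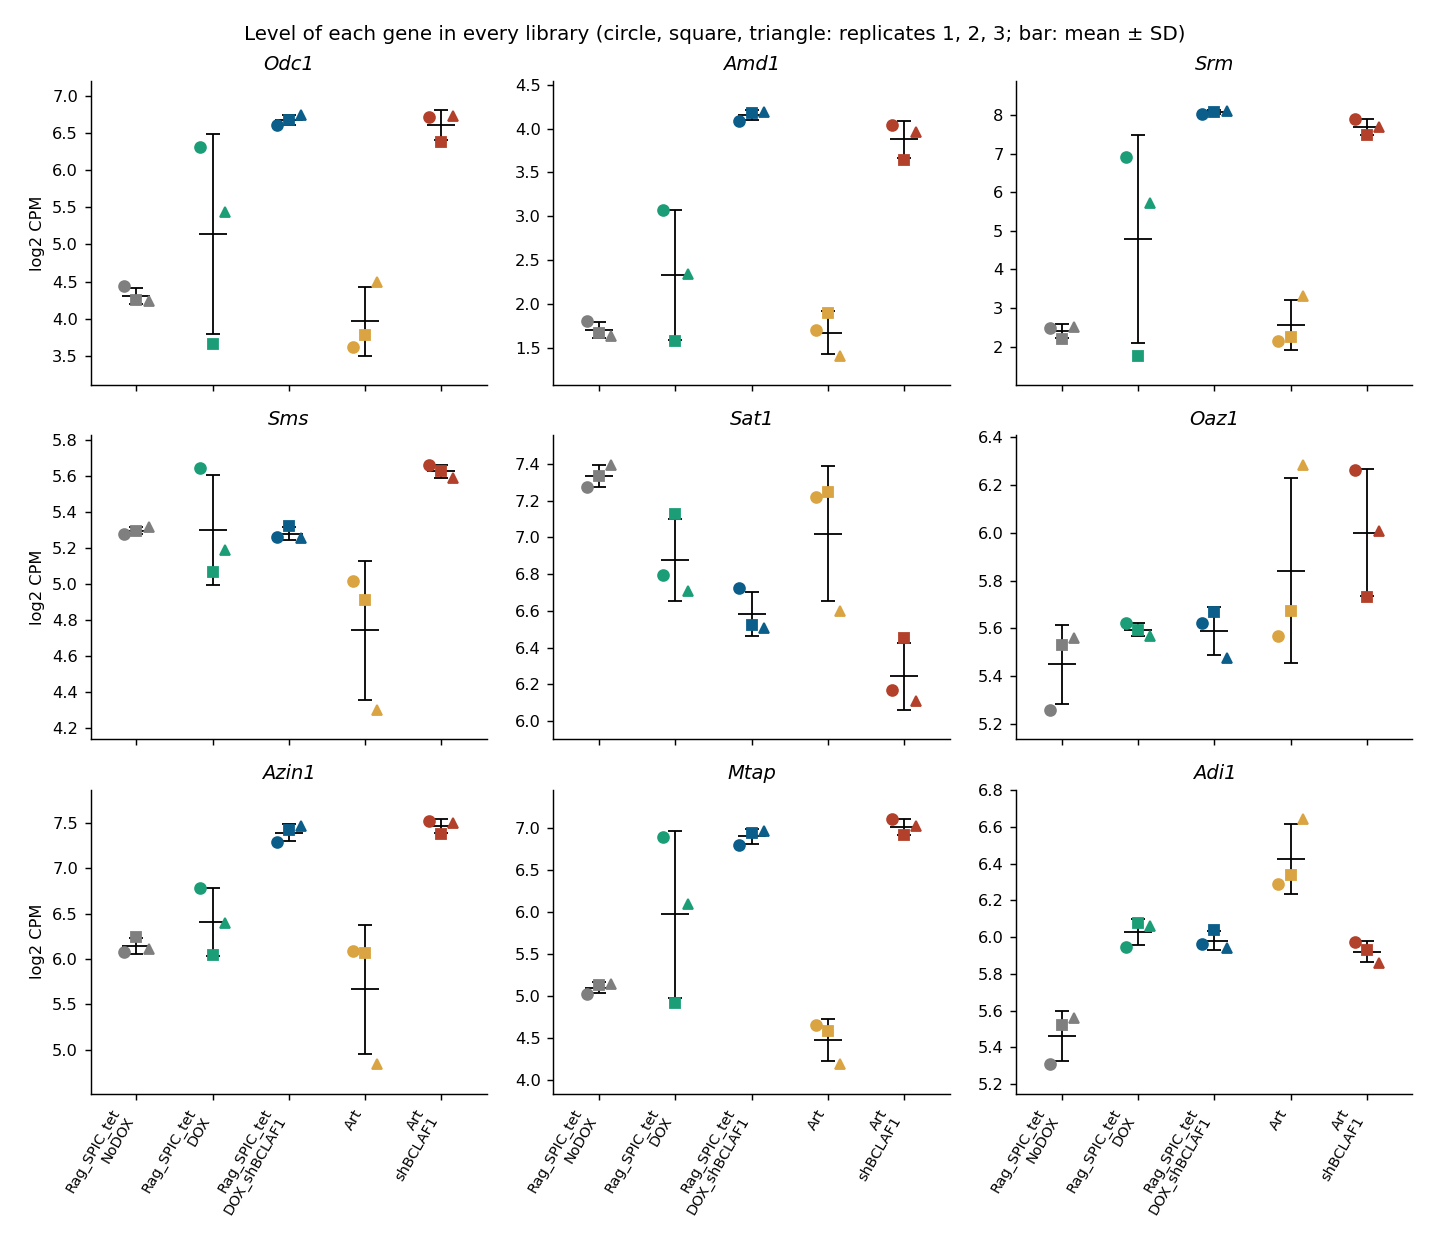
Level of each of the 9 genes in every library, in log2 CPM on its own vertical scale, with circle, square and triangle for replicates 1, 2 and 3 and a bar for mean ± SD (n = 3). Odc1, Amd1, Srm and Azin1 are higher in all 6 libraries labelled shBCLAF1 than in the other 9, while Oaz1 overlaps between each group and the next.

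Of the 2 regulators of ornithine decarboxylase, Azin1 followed Odc1 and Oaz1 did not. Azin1 (ENSMUSG00000037458) was at 6.08, 6.24 and 6.11 in Rag_SPIC_tet_NoDOX, 6.78, 6.04 and 6.40 in Rag_SPIC_tet_DOX, and 7.30, 7.42 and 7.47 in Rag_SPIC_tet_DOX_shBCLAF1. In Art it was at 6.09, 6.07 and 4.84, and in Art_shBCLAF1 at 7.52, 7.38 and 7.5. Both labelled groups were above every other library, and Art replicate 3 was the lowest of the 15. Oaz1 (ENSMUSG00000035242) was at 5.26, 5.53 and 5.56 in Rag_SPIC_tet_NoDOX, 5.62, 5.59 and 5.57 in Rag_SPIC_tet_DOX, and 5.62, 5.67 and 5.48 in Rag_SPIC_tet_DOX_shBCLAF1. It was at 5.57, 5.67 and 6.29 in Art and 6.26, 5.73 and 6.01 in Art_shBCLAF1. No group stood apart from the next in the order of its means, and its span over the 15 libraries was 2.04-fold.

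Sat1 (ENSMUSG00000025283), the acetyltransferase that starts polyamine breakdown, ran opposite to Odc1, Amd1 and Srm. It was at 7.27, 7.33 and 7.39 in Rag_SPIC_tet_NoDOX, the highest group, and at 6.80, 7.13 and 6.71 in Rag_SPIC_tet_DOX and 6.72, 6.52 and 6.51 in Rag_SPIC_tet_DOX_shBCLAF1. Art held 7.22, 7.24 and 6.60 and Art_shBCLAF1 6.17, 6.45 and 6.11. Art_shBCLAF1 was below every library of the other groups, and Art replicate 3 lay 0.63 below the mean of Art replicates 1 and 2.

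The 2 salvage genes did not move together. Mtap (ENSMUSG00000062937), the phosphorylase that opens the pathway, was at 5.03, 5.13 and 5.14 in Rag_SPIC_tet_NoDOX, 6.90, 4.92 and 6.10 in Rag_SPIC_tet_DOX and 6.80, 6.95 and 6.96 in Rag_SPIC_tet_DOX_shBCLAF1. Art held 4.66, 4.58 and 4.18 and Art_shBCLAF1 7.11, 6.92 and 7.02. Art was the lowest group without overlap, and Rag_SPIC_tet_DOX replicate 1 reached the level of the libraries labelled shBCLAF1. Adi1 (ENSMUSG00000020629), the dioxygenase near the end of the pathway, was at 5.31, 5.52 and 5.56 in Rag_SPIC_tet_NoDOX and at 6.29, 6.34 and 6.64 in Art, its lowest and its highest group. The other 3 groups held 5.95, 6.07 and 6.06, then 5.96, 6.04 and 5.94, then 5.97, 5.93 and 5.86 in Rag_SPIC_tet_DOX, Rag_SPIC_tet_DOX_shBCLAF1 and Art_shBCLAF1, and they overlapped.

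Ordered by group mean, Odc1 ran from Art (3.96 ± 0.46, SD) through Rag_SPIC_tet_NoDOX (4.31 ± 0.11) and Rag_SPIC_tet_DOX (5.14 ± 1.35) to Art_shBCLAF1 (6.61 ± 0.20) and Rag_SPIC_tet_DOX_shBCLAF1 (6.68 ± 0.07). The one step at which neighbours did not overlap was that from Rag_SPIC_tet_DOX to Art_shBCLAF1. Srm had its groups at 2.40 ± 0.18 in Rag_SPIC_tet_NoDOX, 2.57 ± 0.64 in Art, 4.80 ± 2.69 in Rag_SPIC_tet_DOX, 7.69 ± 0.21 in Art_shBCLAF1 and 8.07 ± 0.05 in Rag_SPIC_tet_DOX_shBCLAF1, and its first 3 groups overlapped. Over all 11551 genes, 15.4% had the 6 libraries labelled shBCLAF1 above the other 9 and 13.2% had them all below. Among the 9 genes these counts were 4 (Odc1, Amd1, Srm and Azin1) and 0.

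For Srm, Odc1, Mtap and Amd1 the Rag_SPIC_tet_DOX libraries differed most among themselves, while for the other 5 genes the largest SD was that of Art. Srm ranged over 35.4-fold between its replicates 1 and 2, Odc1 over 6.27-fold, Mtap over 3.94-fold and Amd1 over 2.79-fold. Azin1 ranged over 1.68-fold and Sms over 1.49-fold, and in all 6 of these genes replicate 1 was highest and replicate 2 lowest. That order held for 33.5% of all genes, and the median range of all genes was 0.34 log2 units. Myc had the same order, at 8.06, 3.76 and 6.83, whereas Spic, the gene of the construct, had 3.72, 4.59 and 4.31. Oaz1 and Adi1 differed by 0.05 and 0.13 log2 units among these libraries, so not every gene of the set took part. The part of Myc in the spread was not tested.

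**Figure D2:**
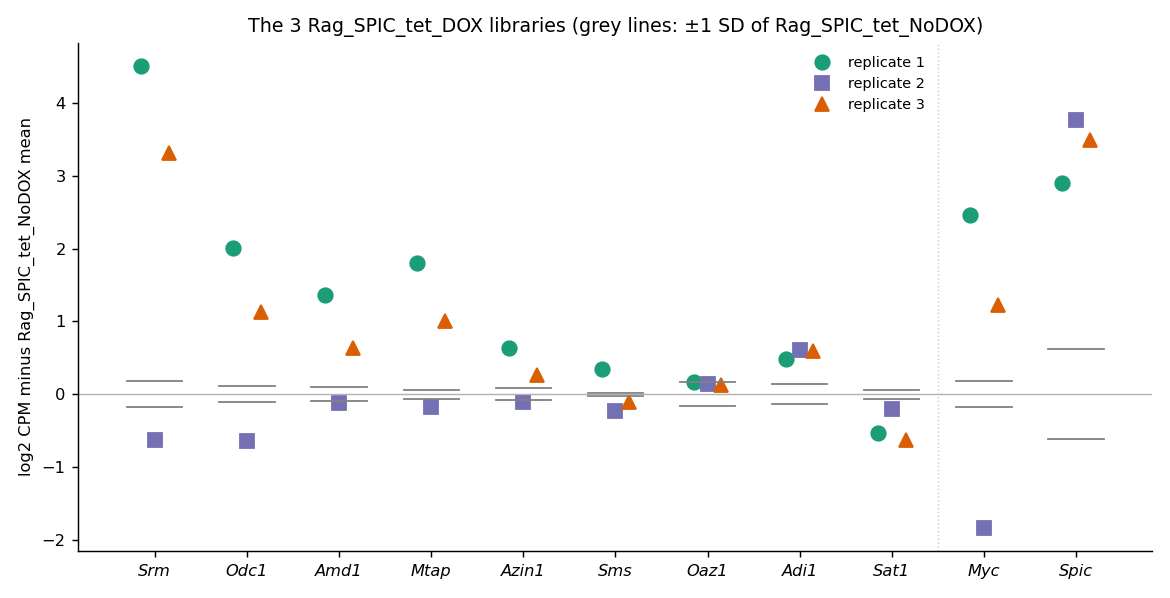
Each Rag_SPIC_tet_DOX library as log2 CPM minus the mean of Rag_SPIC_tet_NoDOX, for the 9 genes and for Myc and Spic, with grey lines at 1 SD of Rag_SPIC_tet_NoDOX on either side of 0. For Srm, replicates 1 and 3 lie 4.51 and 3.31 above that mean and replicate 2 lies at -0.63, and Myc is spread in the same order.

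Art against Rag_SPIC_tet_NoDOX asks what differs in cells that cannot repair RAG breaks, though breaks were not measured and the cells are also different lines. Adi1 rose 1.95-fold in Art (log2 fold change 0.96, SE 0.14, adjusted p = 0.0235 in limma), and none of the other 8 genes passed. Of all genes, 5.14% passed in either direction with 2.58% higher and 2.56% lower. Mtap lay at -0.63 on the log2 scale (SE 0.16, adjusted p = 0.084), Sms at -0.55 (0.19), Azin1 at -0.48 (0.468), Odc1 at -0.34 (0.462), Sat1 at -0.31, Srm at 0.17, Amd1 at -0.03 and Oaz1 at 0.39. The 9 genes had a median of -0.31 against -0.03 over all genes, and 5 of them did not overlap between the groups, where 37.9% of all genes did not. Much of this rests on Art replicate 3, which was shallow and, as given above, shifted over all genes. Without it Adi1 was at 0.85 (adjusted p = 3.31e-08 in limma), and Odc1 (-0.61, adjusted p = 7.6e-05), Mtap (-0.48, 6.19e-05) and Sms (-0.33, 0.00113) fell. That fit called 5473 of all 11551 genes. Without any 1 of the other 5 libraries Adi1 did not pass in limma, with an adjusted p between 0.0771 and 0.144, and 0 of the 9 were called, with 2 or 3 at an unadjusted p below 0.05. Those fits called 0 or 1 of all 11551 genes, so the loss of calls was not particular to these 9. Of all genes, 1493 to 2303 were at an unadjusted p below 0.05 in them. The authors' deposited table lists 4 of the genes, with Adi1 at 0.80, Odc1 at -0.58, Mtap at -0.50 and Sms at -0.34.

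Doxycycline in the Rag cells (Rag_SPIC_tet_DOX against Rag_SPIC_tet_NoDOX, which shares the NoDOX libraries with the comparison above) asks what goes with SPIC induction. No group is labelled as having doxycycline without the SPIC construct, so doxycycline itself and SPIC cannot be told apart. Adi1 rose 1.48-fold (log2 fold change 0.57, SE 0.09, adjusted p = 0.0151 in limma) and Sat1 fell by 0.46 (SE 0.11, adjusted p = 0.0442). The other 7 did not pass, among them Srm at 2.40 (SE 1.15, adjusted p = 0.183), Mtap at 0.87 (SE 0.43, 0.192), Odc1 at 0.83 (SE 0.58, 0.337), Amd1 at 0.63 (SE 0.35, 0.24), Azin1 at 0.26, Oaz1 at 0.15 and Sms at 0.00. Of all genes, 11.8% passed, 3.16% higher and 8.67% lower. The median of the 9 was 0.57 against 0.00 over all genes, and 3 of the 9 did not overlap, against 40.7% of all genes. Without Rag_SPIC_tet_DOX replicate 2 as many as 7 passed: Srm (3.91), Odc1 (1.57), Mtap (1.4), Amd1 (1.0), Adi1 (0.54) and Azin1 (0.45) rose and Sat1 fell by 0.58. That fit called 4569 of all 11551 genes. Without Rag_SPIC_tet_DOX replicate 3, or without Rag_SPIC_tet_NoDOX replicate 1 or 3, limma called 0 of the 9, with 2 at an unadjusted p below 0.05 in each case. Only 58, 12 and 15 of all 11551 genes passed in these fits, and 2573, 2509 and 2447 were at an unadjusted p below 0.05. Sat1 also missed the threshold in limma without Rag_SPIC_tet_DOX replicate 1 (adjusted p = 0.055) and without Rag_SPIC_tet_NoDOX replicate 2 (adjusted p = 0.118). There 1 of the 9 remained, with 1637 and 401 of all 11551 genes called. The authors' deposited table lists 7 of the genes, with Srm at 3.20, Odc1 at 1.15, Mtap at 0.97 and Sat1 at -0.64.

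Art_shBCLAF1 against Art gave the largest differences in the set. It asks what goes with the shRNA label in cells that cannot repair RAG breaks. The breaks themselves were not measured. Rag1 was at 11.55, 11.55 and 10.36 log2 CPM in Art and at 8.25, 8.56 and 8.38 in Art_shBCLAF1, and its part was not tested. Srm rose 34.7-fold (log2 fold change 5.12, SE 0.33, adjusted p = 0.000158 in limma), Odc1 6.26-fold (2.65, SE 0.25, adjusted p = 0.000505) and Amd1 4.61-fold (2.21, SE 0.20, adjusted p = 0.000437). Mtap rose 5.84-fold (2.54, SE 0.16, adjusted p = 0.000157), Azin1 3.49-fold (1.80, SE 0.34, adjusted p = 0.00623) and Sms 1.85-fold (0.88, SE 0.21, adjusted p = 0.0135). Sat1 fell by 0.78 log2 units (SE 0.21, adjusted p = 0.0233) and Adi1 by 0.50 (SE 0.13, adjusted p = 0.0223). Oaz1, at 0.16 (SE 0.24, adjusted p = 0.61), did not pass and turned to -0.070 when libraries were centred on their medians. So 6 of the 9 rose and 2 fell, where 49.0% of all genes passed, 25.0% higher and 24.1% lower, and 8 did not overlap, where 65.6% of all genes did not. Their median was 1.80 against 0.05 over all genes.

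Leaving out a library ended the call of the 3 smaller changes and of none of the 5 larger ones. Srm, Odc1, Mtap, Amd1 and Azin1 passed without each of the 6 libraries in turn. Sms missed the threshold without any 1 of the Art_shBCLAF1 libraries (adjusted p = 0.057, 0.0503 and 0.0507 in limma), and so did Adi1 (0.0722, 0.0685 and 0.0973). Sat1 did so without Art_shBCLAF1 replicate 1 or 3 (0.0873 and 0.0903) or Art replicate 1 or 2 (0.0702 and 0.0697). Without Art replicate 3 all 9 passed, with Oaz1 at 0.38 (adjusted p = 0.0153 in limma), Srm at 5.49 and Sat1 at -0.99. That fit called 9252 of all 11551 genes, and the fits without an Art_shBCLAF1 library called 3740 to 4339. The authors' deposited table lists all 9, with Srm at 5.52, Odc1 at 2.99, Oaz1 at 0.42 and Sat1 at -1.05.

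Rag_SPIC_tet_DOX_shBCLAF1 against Rag_SPIC_tet_DOX puts the same question where RAG breaks cannot form. Amd1 rose 3.52-fold (log2 fold change 1.82, SE 0.35, adjusted p = 0.00609 in limma) and Azin1 1.98-fold (0.99, SE 0.18, adjusted p = 0.00514), and both passed without each of the 6 libraries in turn. Srm had a larger difference that did not pass (3.27, SE 1.21, adjusted p = 0.0585), as did Odc1 (1.54, SE 0.61, adjusted p = 0.0712). Mtap was at 0.93 (SE 0.45, adjusted p = 0.123) and Sat1 at -0.29 (SE 0.12, adjusted p = 0.0839). Sms at -0.02, Oaz1 at -0.00 and Adi1 at -0.05 lay near 0. Thus 2 of the 9 rose and 0 fell, where 53.6% of all genes passed, 28.5% higher and 25.1% lower, and 4 did not overlap, against 66.1% of all genes. The median was 0.93 against 0.05 over all genes. The calls depended on which Rag_SPIC_tet_DOX library was included: without replicate 2 Srm (1.76, adjusted p = 0.00304) and Odc1 (0.80, 0.0202) rose, without replicate 1 Srm (4.33), Odc1 (2.13) and Mtap (1.4, adjusted p = 0.00875) rose, and without replicate 3 the count stayed at 2. In that order, these fits called 6496, 7576 and 4341 of all 11551 genes. The authors' deposited table lists 6 of the genes, with Srm at 2.43, Amd1 at 1.81, Odc1 at 1.26, Azin1 at 1.0, Mtap at 0.83 and Sat1 at -0.16. Myc differed in both labelled comparisons, at 3.0 (SE 0.999, adjusted p = 0.0419 in limma) here and 4.72 (SE 0.14, adjusted p = 3.52e-05) in the Art cells, and its part was not tested.

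**Figure D3:**
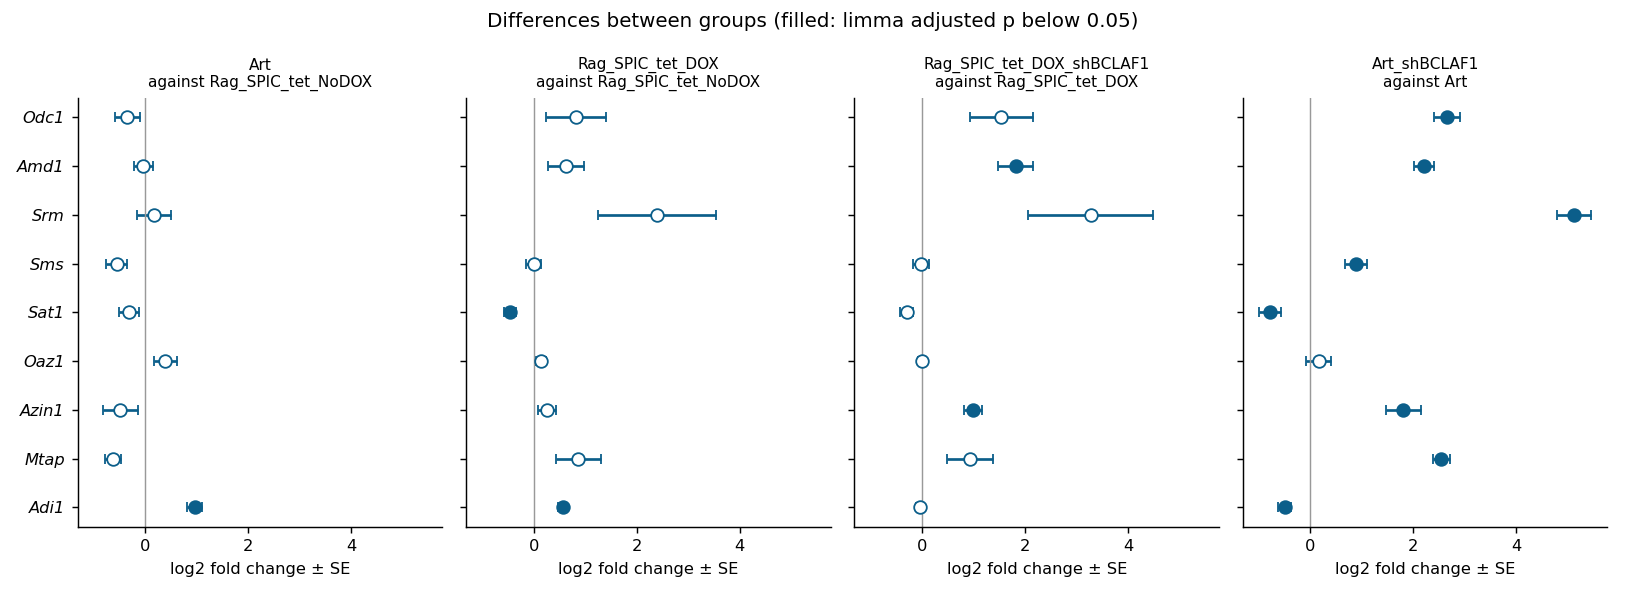
Log2 fold change ± SE of the 9 genes in the 4 comparisons on 1 common axis, filled where the limma adjusted p was below 0.05. The right-hand panel, Art_shBCLAF1 against Art, holds 8 filled points, from Srm at 5.12 down to Sat1 at -0.78.

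The effect of the label in Art minus that in Rag_SPIC_tet_DOX was tested over 12 libraries. Mtap (1.61, SE 0.53, adjusted p = 0.0383 in limma) and Sms (0.90, SE 0.27, adjusted p = 0.0267) gained more in Art, and for Adi1 the effect of the label was lower in Art (-0.46, SE 0.15, adjusted p = 0.0391). For Srm (1.85, SE 1.38, adjusted p = 0.336), Odc1 (1.11, SE 0.73, 0.27), Azin1 (0.82, 0.161), Sat1 (-0.48, 0.179), Amd1 (0.39, 0.52) and Oaz1 (0.16, 0.666) no difference was shown. So 3 of 9 passed, where 31.3% of all genes did, 14.3% higher and 17.0% lower. None of the 3 held in every fit that left out 1 library: limma called 0 of the 9 without any 1 of the 6 libraries labelled shBCLAF1, with 3 at an unadjusted p below 0.05 each time. Those fits called 2674 to 3118 of all 11551 genes, with 4251 to 4558 at an unadjusted p below 0.05. Without Rag_SPIC_tet_DOX replicate 1 or 3 limma called 1 of the 9, without Art replicate 2 it called 2, and without Rag_SPIC_tet_DOX replicate 2 it called 5, Srm (3.36) and Odc1 (1.84) among them. In the same order, 3218, 2776, 3657 and 4075 of all genes were called.

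Differences between genes within a library do not depend on library size. They are differences of mRNA, and neither protein nor enzyme activity was measured. The Odc1 to Oaz1 difference, mRNA of the enzyme against that of antizyme, was 2.23 ± 0.15 (SD, log2 units) above its Rag_SPIC_tet_NoDOX mean in Rag_SPIC_tet_DOX_shBCLAF1 and 1.75 ± 0.14 above in Art_shBCLAF1. In Art it was below that mean in all 3 libraries, at -0.81, -0.74 and -0.65, and in Rag_SPIC_tet_DOX at 0.69 ± 1.34. The Odc1 to Sat1 difference, mRNA of a synthesis gene against that of a breakdown gene, was 3.12 ± 0.18 and 3.39 ± 0.38 above in the labelled groups. Srm gained on Sms by 5.69 ± 0.05 and 4.96 ± 0.20 there. Mtap against Adi1 separated Art from the rest: -1.59 ± 0.45 in Art, against 0.31 ± 1.06 in Rag_SPIC_tet_DOX, 1.29 ± 0.09 in Rag_SPIC_tet_DOX_shBCLAF1 and 1.46 ± 0.09 in Art_shBCLAF1.

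Other genes of these pathways were taken from lists of 41 genes, 31 of which are in the tables. In Art against Rag_SPIC_tet_NoDOX limma called 0 of the 31, with 7 at an unadjusted p below 0.05. Of all 11551 genes, 5.14% were called there and 2505 were at an unadjusted p below 0.05. With doxycycline 1 was called, Mtr (0.41, adjusted p = 0.031 in limma), the methionine synthase, where 11.8% of all genes were called. In Rag_SPIC_tet_DOX_shBCLAF1 against Rag_SPIC_tet_DOX 14 rose and 5 fell, with a median of 0.48, and in Art_shBCLAF1 against Art 16 rose and 1 fell, with a median of 0.69. The backgrounds are those given above, 28.5% higher and 25.1% lower in the first and 25.0% and 24.1% in the second.

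By role, the 2 genes of ornithine supply differed between cells: Slc25a15, the mitochondrial ornithine carrier, rose by 1.03 in Rag and 1.45 in Art cells, while Oat, the ornithine aminotransferase, was at -0.21 in Rag cells (adjusted p = 0.0499 in limma) and rose by 0.69 in Art cells. Of the other synthesis and antizyme genes, the second antizyme inhibitor Azin2 rose by 1.11 and 2.19, and the antizyme Oaz2 fell by 0.33 in Rag cells and did not pass in Art cells. Of 6 breakdown and transport genes 2 rose in Rag and 3 in Art cells. The arginine carrier Slc7a1 rose in both (1.42 and 3.56), the lysosomal polyamine exporter Atp13a2 (0.69) in Rag cells, and the amino-acid carrier subunit Slc3a2 (1.81) and the polyamine oxidase Paox (0.94) in Art cells.

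Hypusine is made from spermidine on the translation factor eIF5A. Eif5a rose by 0.91 and 1.88, its relative Eif5a2 fell by 1.12 in Rag cells, and the hypusine enzymes Dhps (0.48) and Dohh (0.42) rose in Rag cells; in Art cells Eif5a was the 1 call of 4. Of the 5 further salvage genes, Enoph1 (0.89 and 1.38) rose in both, Mri1 (1.08) in Rag cells and Got1 (1.63) in Art cells. Il4i1, an amino-acid oxidase, fell in Art cells by 2.19. Of 12 genes of the methionine cycle and transsulfuration 5 rose and 2 fell in Rag cells, and 7 rose and 0 fell in Art cells. Cth, which makes cysteine from cystathionine, rose by 3.67 (SE 0.37) and 4.76 (SE 0.17), and Mat2a, which makes S-adenosylmethionine, by 1.74 and 1.13. In Art cells Adk (2.92) and Ahcy (2.24) rose too, and in Rag cells Gnmt (0.89) rose and Ahcyl2 fell by 0.83. Near the threshold in Rag cells were Eif5a, Enoph1, Gnmt and Oaz2 (adjusted p = 0.0492, 0.0416, 0.0475 and 0.0431 in limma). Rag_SPIC_tet_DOX held Eif5a at 9.27, 7.89 and 8.68, Enoph1 at 4.80, 3.52 and 4.26, and 16 to 33 reads of Gnmt. Fits that left out a library are not given for these genes. Cbs is among the 7 calls in Art cells, but on 0 to 1 reads per library in Art and 5 to 9 in Art_shBCLAF1, so no size is given for it.

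**Figure D4:**
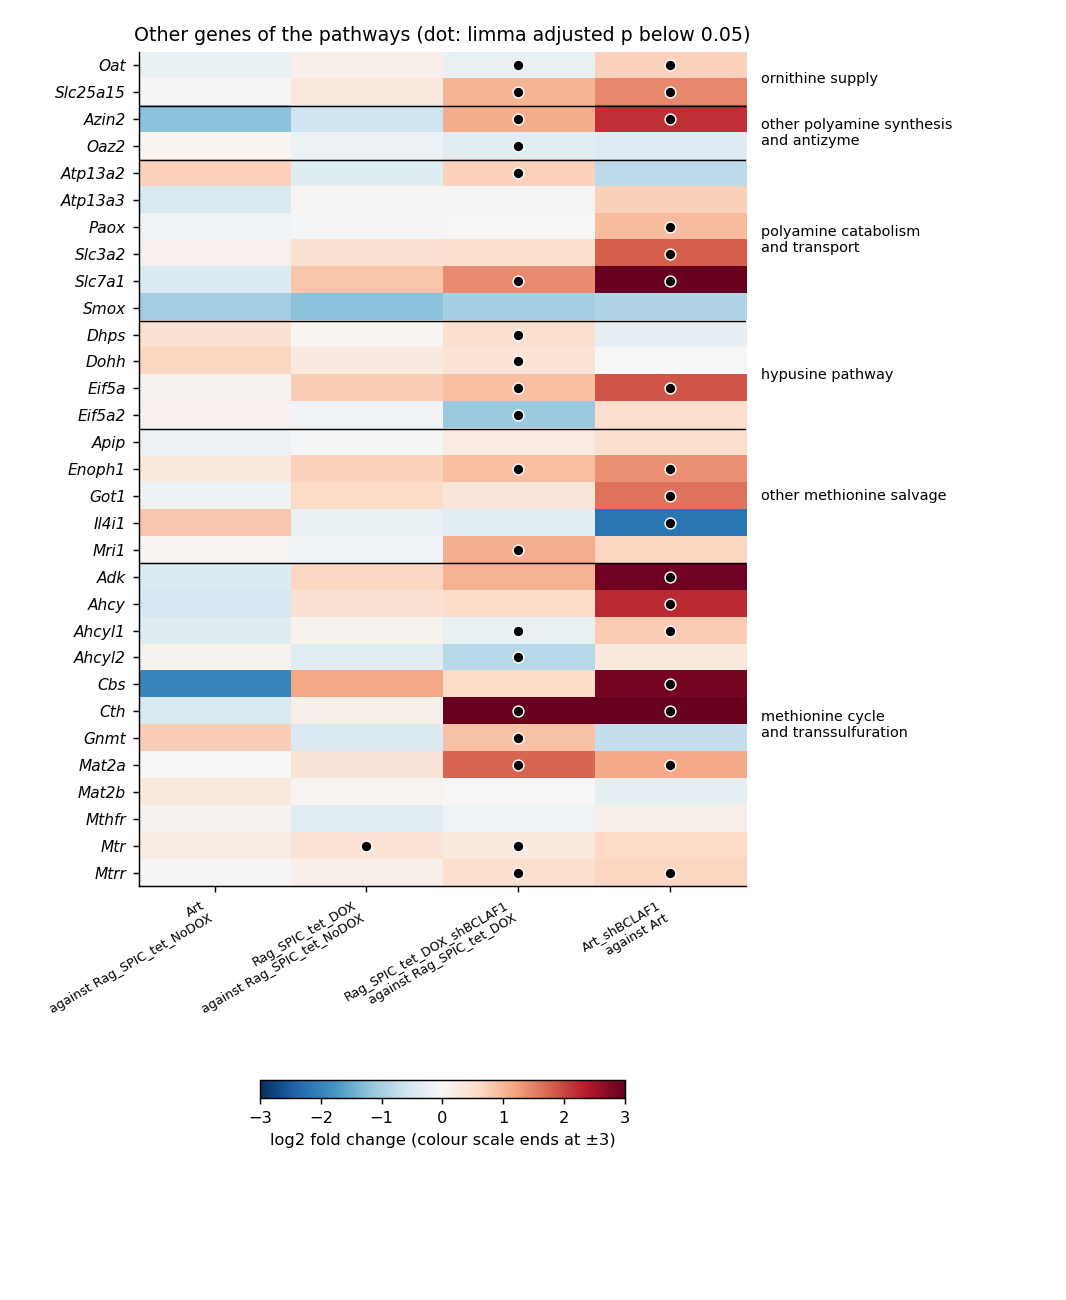
Log2 fold change of the 31 other pathway genes (rows, grouped by role) in the 4 comparisons (columns), red for higher and blue for lower with the colour scale ending at 3 on either side, and a dot where the limma adjusted p was below 0.05. Dots are few in the 2 left columns (0 and 1) and fill 19 and 17 cells of the right-hand columns, and the Cbs colours in the columns with Art, where it had at most 1 read per library, give no size.

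The interaction test called 14 of these 31 genes, 11 higher in Art (Cbs, with its low reads, among them) and 3 lower, against 31.3% of all genes. Slc7a1 (2.14, SE 0.47, adjusted p = 0.00649 in limma) and Adk (1.88, SE 0.50, adjusted p = 0.016) gained more in Art cells. Gnmt (-1.61, adjusted p = 0.0366), Atp13a2 (-1.48, adjusted p = 0.00655) and Il4i1 (-1.86, adjusted p = 0.000395) were the 3 lower ones.

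Across the 15 libraries, which share groups and library depth, Odc1 was most like Srm among the 9 genes (Pearson r 0.99) and next like Mtap (0.96) and Amd1 (0.95). Its r was 0.85 with Azin1, 0.61 with Sms, 0.27 with Oaz1, -0.08 with Adi1 and -0.85 with Sat1. Without Art replicate 3, r was 0.99 with both Mtap and Srm, with Mtap ahead, and 0.96 with Azin1 and with Amd1. Among all genes, those most like Odc1 were Hk2, Cd248 and Fbl (r 0.99 each), and Myc ranked 34th (0.98). Srm was most like Ppa1, Ifrd2 and Mettl1 (0.995, 0.993 and 0.992, with Myc at 0.96), and Amd1 most like Tsr1, Ftsj3 and Shmt1 (0.996, 0.996 and 0.996, Myc 0.95). Mtap was most like Chaf1b, Dnaaf2 and Utp3 (0.99 each, Myc 0.97), and Azin1 most like Heatr3, Socs2 and Dis3 (0.99 each, Myc 0.90). Sat1 was most like Clk1 (0.99), Tgif1 (0.98) and Tnrc6a (0.97), with Myc at -0.75. Sms was most like Hibch, 4930430F08Rik and Fam111a (0.98, 0.98 and 0.97, Myc 0.69). Oaz1 was most like Polr2g (0.92), a gene listed as 2-Mar (0.91; ENSMUSG00000073481) and Coa3 (0.90), and Adi1 most like Wdr73, Snx9 and Sar1a (0.91, 0.91 and 0.90). With Myc, r was 0.13 for Oaz1 and -0.24 for Adi1. The median r with all other genes lay between -0.04 and 0.09 for the 9 genes.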

How the data were processed

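RNA was measured by paired-end sequencing in 15 libraries, 5 groups of 3. Per the submitters' processing notes, the build was mm9 and the tools were Subread, featureCounts 1.4.5, edgeR and limma, with no role or order given. The authors deposited 4 tables of log2 CPM for all libraries, with their own log2 fold changes and p-values (raw and adjusted, at most 0.0499). Below 1000 reads, 100% of the deposited log2 values return to whole reads within 0.05 once the 0.5 added per read count is removed. The tables were joined to 11551 genes, 152 duplicate rows were merged, and 1 column whose name differs by 1 character from its label was taken as Art replicate 3.

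Each comparison was fitted with limma 3.58.1 (R 4.3.3, mean-variance trend, two-sided) to the 6 libraries of its groups, and the difference of the shRNA effects to 12. P-values were adjusted by Benjamini-Hochberg over the 11551 genes, and those below 0.05 are called. The code was tested on simulated data. Since the labels name no separate cultures, a p-value here weighs only sample-to-sample spread, which may be technical. A positive value is higher in the group named first, and the authors' values were turned to that direction. All 9 genes are named; of each other list, up to 4 called genes with the largest change; and the 3 genes with the highest r over the 15 libraries. The genes and lists were chosen with earlier results of these data known.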

Additional observations from a re-analysis of the deposited data

Results flagged for a closer look

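The effect of the shBCLAF1 label differed between the Art and the Rag_SPIC_tet_DOX cells in limma's test of the difference itself for 3 of the 9 genes, where 31.3% of all genes passed that test. For Mtap, which opens methionine salvage, the effect was 2.54 log2 units in Art and 0.93 in Rag_SPIC_tet_DOX, a difference of 1.61 (SE 0.53, adjusted p = 0.0383 in limma). For Sms, the spermine synthase, the effects were 0.88 and -0.02, a difference of 0.90 (SE 0.27, adjusted p = 0.0267 in limma). For Adi1, a late salvage enzyme, they were -0.50 and -0.05, a difference of -0.46 (SE 0.15, adjusted p = 0.0391 in limma). Mtap was spread from 4.92 to 6.90 log2 CPM over the Rag_SPIC_tet_DOX libraries, and Sms was at 4.30 in the shallow Art replicate 3 against 5.01 and 4.91 in Art replicates 1 and 2. Without Art replicate 3 the differences were 1.47, 0.68 and -0.35 (adjusted p = 0.0446, 0.0107 and 0.00655 in limma), and without Rag_SPIC_tet_DOX replicate 2 they were 2.14, 1.02 and -0.48 (adjusted p = 0.000569, 0.0176 and 0.0432 in limma). Without any 1 of the libraries labelled shBCLAF1, none of the 3 passed, where 2674 to 3118 of all 11551 genes did.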

How the results depend on the processing

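Over the alternatives run for the 9 genes, 524 results kept direction and side of the threshold, 54 lost their call, 44 gained one and 17 changed sign, all of the last without a call in the fit reported. In Art_shBCLAF1 against Art, Srm, Odc1, Mtap, Amd1 and Azin1 passed in 13 of 13 alternatives, as did Amd1 and Azin1 in Rag_SPIC_tet_DOX_shBCLAF1 against Rag_SPIC_tet_DOX. Array weights, whose estimation did not converge in every fit, gave Rag_SPIC_tet_DOX replicate 3 a weight of 81.1 to 274 and Art replicate 3 one of at most 0.0263. The cause of the changes below was not tested.

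Genes called, with array weights, were 6547 in Art against Rag_SPIC_tet_NoDOX (594 reported), 8589 with doxycycline (1367), 10078 for the label in Rag cells (6186), 9839 in Art cells (5664) and 9159 for the difference (3621); of the 9 genes, 5, 8, 8, 9 and 9 were called (1, 2, 2, 8 and 3 reported). One fit over all 15 libraries called 1957 genes and 2 of the 9 in Art against Rag_SPIC_tet_NoDOX. With doxycycline it called 1160 genes and 1 of the 9, and for the label in Rag cells 4593 genes and 5 of the 9. Centring libraries on their medians left 1 of the 9 and 1157 of all genes with doxycycline. Voom weights on recovered reads, an alternative chosen after seeing the data, left 1 of the 9 and 1270 of all genes there. Centring moved the median of all genes from 0.05 to -0.18 in Art_shBCLAF1 against Art and the share of higher calls from 50.9% to 37.5%; in that comparison the changes of Srm, Odc1, Mtap, Amd1, Azin1 and Sms stayed above 0.63 in all alternatives. Leaving out 1 library gave 0 to 5473, 12 to 4569, 3945 to 7576, 3740 to 9252 and 2674 to 6286 genes called in Art against Rag_SPIC_tet_NoDOX, doxycycline, the label in Rag, the label in Art and the difference, and 0 to 4, 0 to 7, 2 to 5, 5 to 9 and 0 to 5 of the 9.

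The replicate numbers do not pair the samples: 2 of 12 same-numbered correlations were over 0.1 and 3 of 12 libraries were closest to their own number. With the replicate block limma called 0 genes in Art against Rag_SPIC_tet_NoDOX (1902 at an unadjusted p below 0.05, voom 701). With doxycycline it called 150 (3528 unadjusted, voom 1270). Of the 9 it called 0 in either (2 and 3 unadjusted, 1 in each by voom). The block also left Adi1 without a call in Art_shBCLAF1 against Art (adjusted p = 0.0752 in limma) and for the difference (0.0612), gave Srm one for the label in Rag cells (0.0487), and changed no other call of the 9 in these 3 comparisons. The edgeR alternative was not run, since the deposited values are log2 CPM.

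Of the results that changed sign, 2 passed in the new direction, both Sms with array weights. In Art against Rag_SPIC_tet_NoDOX, Amd1 was at 0.13 with array weights, 0.018 centred and 0.011 with voom, and between -0.15 and 0.098 with 1 library left out. Srm there was at -0.27 with array weights and between -0.20 (without Art replicate 3) and 0.37. With doxycycline, Sms was at -0.12 with array weights (adjusted p = 0.0345 in limma) and -0.049 centred, and between -0.17 and 0.12 with 1 library left out. For the label in Rag cells, Sms was at 0.10 with array weights (adjusted p = 0.0278 in limma) and between -0.14 and 0.15 with 1 library left out, and Oaz1 at 0.031 and between -0.043 and 0.051. Oaz1 in Art_shBCLAF1 against Art was at -0.070 centred, and between 0.022 and 0.38 with 1 library left out. Depth limits Amd1 in Art replicate 3, where it rests on 15 reads.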
